A study of Mus musculus with 89 samples.

Results

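MHC class II presentation genes were followed across the crypt-villus axis of the mouse jejunum and across its cell types. The 7 genes were taken by name. They are Cd74, H2-Aa, H2-Ab1, H2-Eb1, H2-DMa, H2-DMb1 and Ciita, and all 7 were found among the 27538 genes of the clump table and among the 23379 genes of the single cell table. The epithelium of male C57BL/6 mice on regular chow was released with EDTA, either gently into clumps of attached cells or more fully into single cells. No treatment group or genetic change was part of the design. Clumps were sorted by their DNA content into pairs (4n), which all of mice 1 to 5 gave, and clumps of more than 4n (larger clumps), which mice 1, 4 and 5 gave. Clumps of mouse 6, sorted as above 2n, were left out of the main comparisons. Single cells came from 4 mice. All plates were labelled with an age of 3 months, except 3 single cell plates of mouse 2 labelled with 4 months. Mice were numbered separately in the 2 tables, so equal numbers are not read as the same animal.

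Class II molecules present peptides taken up from outside the cell to CD4 T cells. They are pairs of an alpha and a beta chain, which assemble with the invariant chain encoded by Cd74, travel to the endosome, lose the invariant chain to proteases and exchange its remnant for a peptide with the help of H2-DM. Ciita is the coactivator that switches these genes on, and interferon gamma is its best known inducer. Dendritic cells, macrophages and B cells express them constitutively, and enterocytes of the small intestine are known to express them as well.

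In GRCm38, 5 of the genes lie in the class II region of chromosome 17. H2-DMa spans chr17:34119541-34139101 on the plus strand, H2-DMb1 spans chr17:34153072-34160230 and H2-Ab1 spans chr17:34257689-34269419. H2-Aa spans chr17:34282744-34287823 on the minus strand, H2-Eb1 spans chr17:34305867-34316674, and Ciita spans chr16:10480059-10528418. Annotated genes overlap H2-DMa (Brd2 among them), H2-Eb1 (Gm20513) and Ciita (Dexi). H2-DMb1 has a close copy, H2-DMb2, so the split of UMIs between these genes is uncertain. The promoters of H2-Aa, H2-Eb1 and H2-DMb1 are shown because these genes share a known promoter module, of an X1, an X2 and a Y box, that the class II activators bind. Each line holds the 120 bases before the start of the gene in RefSeq (GRCm38.p6), 5′ to 3′ on the strand of the gene, at chr17:34287824-34287943, chr17:34305747-34305866 and chr17:34153071-34153190 in this order. The gene spans above are those of GENCODE, in which H2-DMb1 starts further upstream, so its window lies almost wholly inside that span. Capitals mark letters that match the cores searched on both strands, CCAAT for the Y box, CCNNGNAAC for the X1 box and TGACG for the X2 box.
H2-Aa: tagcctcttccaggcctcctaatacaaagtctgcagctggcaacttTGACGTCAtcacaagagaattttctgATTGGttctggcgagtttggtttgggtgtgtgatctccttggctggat
H2-Eb1: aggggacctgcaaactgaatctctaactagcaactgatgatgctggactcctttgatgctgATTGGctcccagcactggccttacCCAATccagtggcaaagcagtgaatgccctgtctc
H2-DMb1: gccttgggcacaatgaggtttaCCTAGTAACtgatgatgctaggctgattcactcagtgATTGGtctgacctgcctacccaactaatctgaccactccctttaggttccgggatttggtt
In H2-Aa, ATTGG, the reverse complement of CCAAT, lay at positions −48 to −44 from the start, and TGACG and its reverse complement CGTCA overlapped between −74 and −67. H2-Eb1 held CCAAT at −35 to −31 and ATTGG at −59 to −55. H2-DMb1 held ATTGG at −61 to −57 and CCTAGTAAC at −98 to −90. None of the windows shown held all of the cores. CCNNGNAAC was found in neither H2-Aa nor H2-Eb1, and TGACG in neither H2-Eb1 nor H2-DMb1. The windows of H2-DMa, not shown, held no core within 120 bases of its RefSeq starts. Further upstream, H2-DMa held CCACGAAAC at −231 to −223 and, from a different start, ATTGG at −198 to −194. Over the 250 bases before the start, CCAAT was found in 33.8% of 32817 promoters, CCNNGNAAC in 12.6% and TGACG in 17.8%, so these letters alone are common. TTCNNNGAA, the interferon-gamma activated site, was found in 7.01% of promoters and in none of the 3 shown.

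Each clump received a zone (crypt, mid-villus or villus tip) from 70 enterocyte landmark genes, none of which is a class II gene. Of 6004 clumps of mice 1 to 5 with over 500 unique molecular identifiers (UMIs), 5883 had a zone (3251 crypt, 1821 mid-villus and 811 tip clumps). UMIs were summed per mouse and zone, into 15 sums of 76801 to 18868631 UMIs, and levels are counts per 1000000 UMIs of the sum (CPM). The mouse was the replicate. The crypt of mouse 4 stood apart in depth, with 2053 clumps, and the tip of mouse 4 rested on 38. All plates shared the same set of well barcodes, which name the position in the plate and not a cell.

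Most class II genes had higher levels in villus clumps than in crypt clumps. The invariant chain and the chains of the peptide-binding molecule were 2.64 to 4.32 times as high in the mid-villus as in the crypt by the median over mice, and the means of the peptide editor genes H2-DMa and H2-DMb1 peaked in the mid-villus. Cd74 stood at 875, 266, 788, 111 and 366 CPM in the crypts of mice 1 to 5, at 2747, 600, 1997, 382 and 989 CPM in the mid-villus, and at 3748, 536, 2298, 635 and 729 CPM at the tip. Both villus zones were above the crypt in 5 of 5 mice. The mid-villus level was 2.26 to 3.46 times the crypt level, and the tip level was 1.99 to 5.74 times it. The ranges of the zones overlapped over mice, because the crypts of mice 1 and 3 were above the mid-villus of mice 2 and 4. In sums of clumps, fewer cells of a type and less RNA per cell cannot be told apart.

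H2-Aa, the alpha chain, had crypt levels of 194, 63.0, 153, 7.68 and 136 CPM in mice 1 to 5. In the mid-villus it stood at 926, 155, 660, 121 and 406 CPM, and at the tip at 868, 140, 615, 313 and 260 CPM. Mice 1 and 3 were the highest in every zone, and mouse 4 had the lowest crypt level, with 145 UMIs among 18868631. The mid-villus level was at least 2.47 times the crypt level in each mouse, with a median of 4.32.

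H2-Ab1, the beta chain that pairs with H2-Aa, gave 164, 52.9, 133, 26.3 and 83.7 CPM in crypts. Its mid-villus levels were 658, 213, 506, 148 and 304 CPM, and its tip levels were 896, 164, 559, 218 and 221 CPM. Its highest crypt level (163.7 CPM) and its lowest tip level (164.1 CPM) almost met. The tip level was 2.65 to 8.28 times the crypt level.

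H2-Eb1, the beta chain of the second class II molecule, whose alpha chain C57BL/6 mice are known to lack, peaked in the mid-villus in mice 1, 2, 3 and 5. It stood at 141, 41.6, 93.9, 16.2 and 46.2 CPM in crypts, at 371, 109, 273, 116 and 122 CPM in the mid-villus, and at 179, 58.8, 157, 123 and 78.1 CPM at the tip. The tip level was 0.482 to 1.06 times the mid-villus level.

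The peptide editor had its highest level in the mid-villus too, except for H2-DMa in mouse 5. H2-DMa stood at 58.0, 25.2, 44.0, 18.9 and 31.7 CPM in crypts, at 82.6, 31.5, 61.1, 43.4 and 25.4 CPM in the mid-villus, and at 36.7, 12.2, 36.9, 28.4 and 13.0 CPM at the tip. H2-DMb1 stood at 47.7, 7.56, 27.0, 6.62 and 11.5 CPM in crypts, at 97.5, 32.7, 72.0, 29.0 and 35.5 CPM in the mid-villus, and at 45.9, 19.6, 44.9, 9.48 and 26.0 CPM at the tip. Both genes were lower at the tip than in the mid-villus in 5 of 5 mice, and in 4 of 5 mice the tip level of H2-DMa was below its crypt level too. H2-DMa made up 3.54 to 10.1% of the class II UMIs of a crypt and 0.636 to 2.14% of those of a tip. Some tip levels of these genes rest on few molecules, with 5 UMIs of H2-DMa in mouse 2, 3 in mouse 4 and 1 in mouse 5, and 2 UMIs of H2-DMb1 in mouse 5 and 1 in mouse 4.

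Ciita was at 0 to 9.29 CPM in all 15 sums and at 0 UMIs in 5 of them, too few for a test. A count of 0 allows a level of up to 3.96 CPM in the tip of mouse 3 and up to 39.1 CPM in the tip of mouse 5 (3 counts, counting error only). Summed over the 7 genes, the level was 810 ± 542 CPM in the crypt (SD, n = 5 mice), 2466 ± 1720 CPM in mid-villus clumps and 2616 ± 2083 CPM at the tip.

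**Figure D1:**
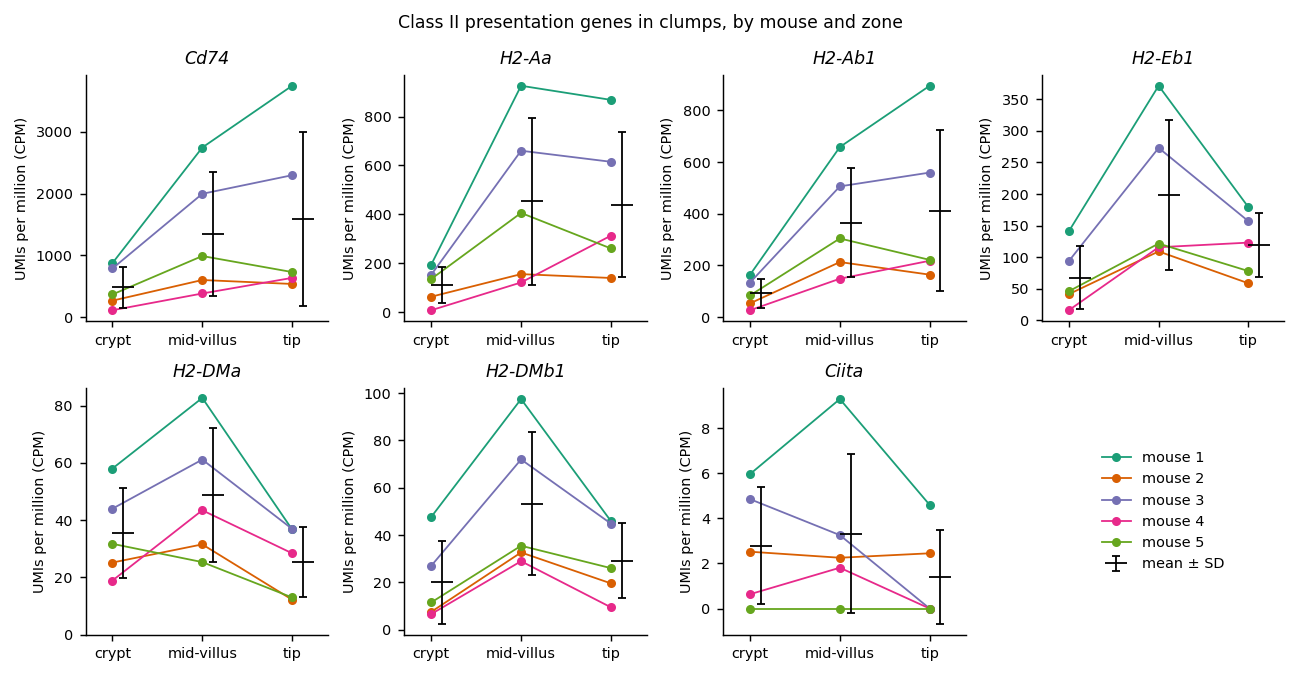
Level of each class II gene in clumps (vertical axis, CPM, a separate linear scale per gene) by zone (horizontal axis), with 1 coloured line per mouse and the mean ± SD over 5 mice in black. In 5 of 5 mice the lines of Cd74, H2-Aa, H2-Ab1, H2-Eb1 and H2-DMb1 climb from the crypt to the mid-villus, and those of H2-DMa and H2-DMb1 come down again to the tip.

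Tested across mice, the chains of the class II molecule and the invariant chain had higher levels in tip clumps than in crypt clumps. Of the 7 genes, 6 passed the filter on low counts, and 4 of these were higher at an adjusted p below 0.05 (edgeR's quasi-likelihood test, Benjamini-Hochberg adjustment over all genes tested), against 24.5% of all 6984 genes tested called higher. The log2 changes were 2.5 ± 0.54 (SE) for H2-Ab1 (adjusted p = 0.000634), 2.29 ± 0.68 for H2-Aa (adjusted p = 0.00802), 2.06 ± 0.63 for Cd74 (adjusted p = 0.00924) and 1.17 ± 0.48 for H2-Eb1 (adjusted p = 0.0446). H2-DMb1 was at 0.99 ± 0.56 (adjusted p = 0.138), and H2-DMa was at −0.04 ± 0.41 with a 95% interval of −0.84 to 0.75. The median log2 change of the 6 genes was 1.61, beside −0.07 over all genes tested. Leaving out mouse 2, 3, 4 or 5 ended the call of H2-Eb1, and leaving out mouse 1 added H2-DMb1. The call of H2-Eb1 was also lost with DESeq2's test, with no filter on low counts and without clumps that held immune markers. With pairs alone 2 genes were called (H2-Aa and H2-Ab1), against 19.8% of all genes, and 4 when the mouse was a block as well, against 28.2%.

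Between mid-villus and crypt, 5 of the 6 genes were higher, all but H2-DMa, against a background of 20.1%. H2-Aa had a log2 change of 2.18 ± 0.68 (adjusted p = 0.0134), H2-Ab1 of 2.16 ± 0.53 (adjusted p = 0.00257), H2-Eb1 of 1.71 ± 0.46 (adjusted p = 0.00526), Cd74 of 1.64 ± 0.62 (adjusted p = 0.0379) and H2-DMb1 of 1.56 ± 0.48 (adjusted p = 0.0121). H2-DMa was at 0.66 ± 0.34 (adjusted p = 0.122). The median of the 6 genes was 1.68, beside 0.06 over all genes tested. Cd74 lost its call without mouse 1, 2, 3 or 5, with DESeq2's test or size factors, with library sizes alone, with pairs alone and without clumps that held T lymphocyte markers, and kept it with the mouse as a block. Without mouse 3, 2 genes were called, H2-Ab1 and H2-Eb1, against 15.8%. With pairs alone 2 were called (H2-Aa and H2-DMb1), against 9.93%, and 5 with the mouse as a block, against 21.1%.

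Between tip and mid-villus, none of the 6 genes was called by edgeR and none had an unadjusted p below 0.05, against 14.5% of all genes called in either direction, and DESeq2 called none. The 95% interval of the log2 change ran from −0.77 to 1.60 for Cd74 and from −1.5 to 0.09 for H2-DMa, so differences of that size could not be told from none. H2-Ab1 was at 0.34 ± 0.51 and H2-Aa at 0.12 ± 0.65, and H2-Eb1 was at −0.54 ± 0.47 and H2-DMb1 at −0.57 ± 0.54.

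The zones of 1 mouse come from the same animal. With the mouse as a block, 5 genes passed the test at the tip (H2-DMb1 in addition, log2 change 1.04 ± 0.30, adjusted p = 0.00314), against 29.6% of all genes. All 6 were higher in the mid-villus (H2-DMa in addition, 0.73 ± 0.20, adjusted p = 0.00239), against 29.9%. Between tip and mid-villus none was called with the block, against 29.9% in either direction, and H2-DMa (adjusted p = 0.0555), H2-Eb1 (adjusted p = 0.0812) and H2-DMb1 (adjusted p = 0.111) had unadjusted p-values below 0.05, each lower at the tip. With the block and library sizes in place of scaling factors, these 3 genes were called lower at the tip, against 26.5% of all genes.

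The scaling of the libraries moved these values. Tip libraries had smaller TMM factors than crypt libraries in 5 of 5 mice, so the fitted changes exceed the ratios of CPM. With DESeq2's size factors the median change of all genes from crypt to tip was −0.40 and that of the 6 genes 1.32, with library sizes alone the medians were −0.49 and 1.26, and 3 genes (Cd74, H2-Aa and H2-Ab1) were called in each case, against 18.5% of all genes with DESeq2's size factors and 15.6% with library sizes. With library sizes and the mouse as a block, 4 genes were called at the tip, against 20.1%, and 6 in the mid-villus, against 22.8%. Without the block, 4 genes (all but Cd74 and H2-DMa) were called in the mid-villus with DESeq2's size factors, against 12.5%, and with library sizes, against 12.9%. Among all calls between tip and crypt, 45.1% were higher with TMM, 33.5% with DESeq2's size factors and 29.6% with library sizes alone. For the mid-villus these shares were 47.4%, 29.5% and 34.8%, and the medians of the 6 genes were 1.68, 1.38 and 1.5.

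**Figure D2:**
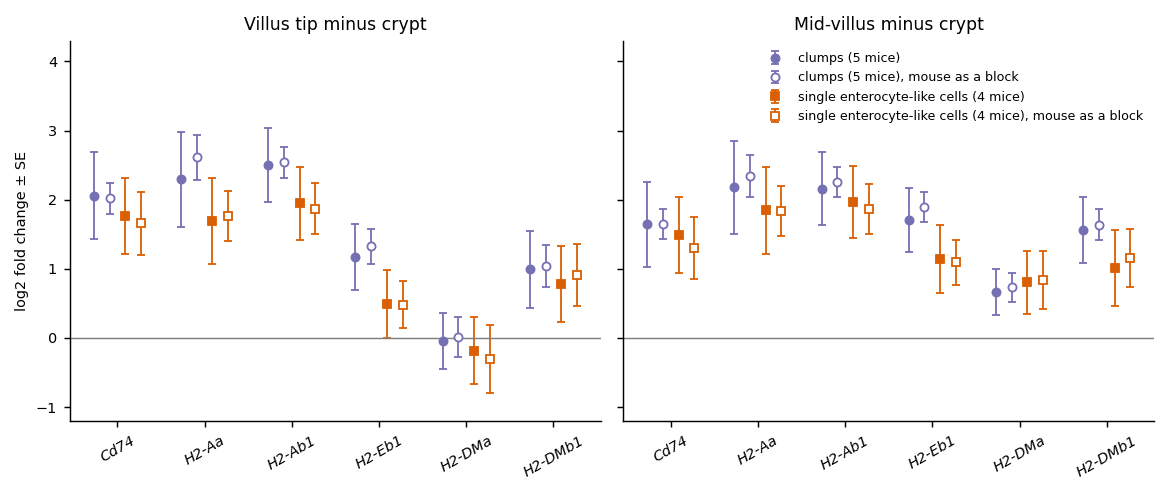
Log2 fold change ± SE of 6 class II genes (vertical axis) from crypt to villus tip (left) and from crypt to mid-villus (right), in clumps of 5 mice (circles) and in single enterocyte-like cells of 4 mice (squares), without (filled) and with (open) the mouse as a block. H2-Ab1, H2-Aa and Cd74 lie above 1 in every fit drawn, and H2-DMa lies at 0 at the tip within its error. All fits drawn use TMM factors.

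After each clump was thinned to 500 UMIs, 48.6, 18.3, 40.2, 9.35 and 29.2% of the crypt clumps of mice 1 to 5 held a UMI of the 7 genes. In the mid-villus the shares were 87.5, 35.3, 75.1, 19.9 and 50%, and at the tip 84.6, 25.8, 70.9, 36.8 and 43.3%. Both villus zones were above the crypt in 5 of 5 mice. No clump was shallower than 500 UMIs, and before thinning the shares were 43.6 to 87.9% in crypts, 46.2 to 97.5% in the mid-villus and 41.6 to 92.3% at the tip. The unthinned shares of mouse 4 (54.0% in the crypt and 46.2% in the mid-villus) and mouse 2 (43.6% in the crypt and 41.6% at the tip) went the other way. A single crypt clump of mouse 2 held 15 of the thinned UMIs. Without its clumps that held B cell, myeloid or plasma cell marker UMIs, the crypt share of mouse 2 was 14.1%. In mouse 4 the median crypt clump held 6454 UMIs and the median mid-villus clump 1414, and in mouse 2 the median crypt clump held 2421 UMIs and the median tip clump 1105.

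**Figure D3:**
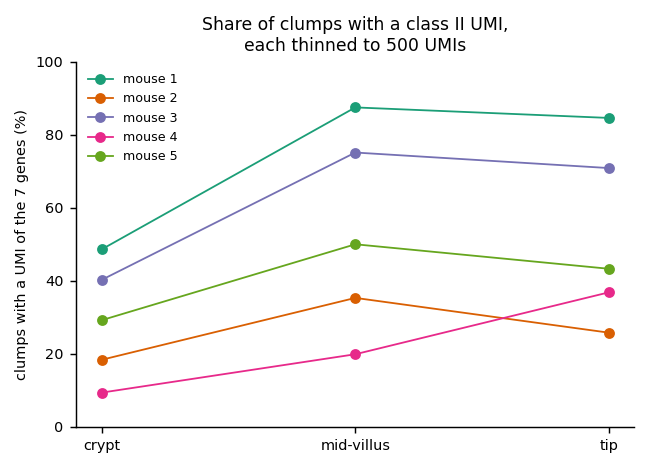
Share of clumps with at least 1 UMI of the 7 class II genes after thinning each clump to 500 UMIs (vertical axis, percent) by zone (horizontal axis), 1 line per mouse. The share of mouse 1 runs from 48.6% in the crypt to 87.5% in the mid-villus, and that of mouse 4 from 9.35% to 36.8% at the tip.

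Professional presenting cells could add class II RNA to clumps, so their markers were measured in the same sums. B cell markers summed to 2.28 to 22.7 CPM in crypts, 2.79 to 14.5 CPM in the mid-villus and 0 to 13.0 CPM at the tip, with Fcer2a and Pax5 at 0 in all zones. Myeloid markers summed to 2.52 to 11.5, 1.81 to 15.2 and 0 to 47.4 CPM, with C1qa at 0 in all zones and Csf1r, Itgax and Flt3 at 0 at the tip, 8 of 11 genes detected in the crypt and 4 of 11 in each villus zone. The 47.4 CPM were 5 UMIs in the tip of mouse 4. For B cells 5, 5 and 3 of 7 genes were detected in crypt, mid-villus and tip clumps. The class II genes had 55.6 UMIs per myeloid marker UMI in clumps of the crypt, 895 in those of the mid-villus and 587 in those of the tip, beside 13.8 in the single cell cluster richest in class II RNA described below. The ratios of crypt and tip depended on mouse 4, without which they were 176 in the crypt and 1518 at the tip, the latter over 3 marker UMIs. Without mouse 3 the tip ratio was 314 over 6 marker UMIs. T lymphocyte markers reached 136 CPM and plasma cell markers 304 CPM, both in a crypt. All 12 T lymphocyte and all 5 plasma cell markers were detected in the crypt, and 8 and 2 of them at the tip. Without the 294 crypt, 99 mid-villus and 30 tip clumps that held a B cell, myeloid or plasma cell marker UMI, 3 genes were called at the tip, against 24.4% of all genes, and 5 in the mid-villus, against 17.3%. The counts with the mouse as a block were 5 and 6, against 29.4% and 26.3%.

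The number of cells in a clump made no detectable difference. The comparison was made in the crypt, where the 7 genes summed to 1297 CPM in the larger clumps and 2080 CPM in the pairs of mouse 1, to 188 and 154 CPM in mouse 4, and to 684 and 599 CPM in mouse 5. None of 6 genes was called by edgeR or DESeq2 and none had an unadjusted p below 0.05, against 0% of 6941 genes in the background. The interval of Cd74 ran from −1.42 to 1.12 on the log2 scale. The log2 differences of the other 5 genes were −0.10 ± 0.78 for H2-Aa, −0.38 ± 0.60 for H2-Ab1, −0.34 ± 0.64 for H2-Eb1, −0.21 ± 0.68 for H2-DMb1 and 0.07 ± 0.57 for H2-DMa. With the mouse as a block the count was 0 as well, against 0.36% of all genes.

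Mice differed widely. In crypt clumps the highest mouse was at 7.91 times the lowest for Cd74, 25.3 times for H2-Aa, 6.22 times for H2-Ab1 and 3.07 times for H2-DMa. The median SD over mice of the 7 genes, on the scale of log2(CPM + 1), was 1.17 in crypts, 0.88 in the mid-villus and 1.04 at tips, beside medians of 0.51, 0.61 and 1.12 over the other genes tested. In crypts all 7 genes lay above the median of the other genes, and at tips Cd74 and Ciita did. Cd74 in crypt clumps spanned 643 to 1543 CPM over 7 plates of mouse 1 and 57.4 to 160 CPM over 9 plates of mouse 4. Plates of 1 mouse could also lie far apart, as in the mid-villus of mouse 4, where Cd74 spanned 42.7 to 734 CPM over 9 plates.

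The same question was put to single cells, where each well holds 1 cell. Of 5199 cells kept, 2536 enterocyte-like cells had a zone by the same landmarks (380 crypt, 743 mid-villus and 1413 tip cells). The sum of the 7 genes was highest in the mid-villus in mice 2, 3 and 4, at 730, 2085 and 1048 CPM, beside 404, 1058 and 385 CPM in the crypt and 637, 1312 and 791 CPM at the tip. Cd74 stood at 226, 629 and 266 CPM in their crypts, at 355, 1094 and 604 CPM in the mid-villus and at 366, 724 and 538 CPM at the tip. H2-Ab1 stood at 59.2, 126 and 50.3 CPM, at 150, 383 and 212 CPM, and at 124, 230 and 134 CPM in the same order. The crypt sum of mouse 1 came from 5 cells with 9847 UMIs and gave 1930 CPM of Cd74 together with 812 CPM of B cell markers, so it was not typical of the other mice. Mid-villus and tip cells of mouse 1 gave 1688 and 942 CPM.

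By edgeR with TMM factors, 3 of 6 genes (Cd74, H2-Aa and H2-Ab1) were higher in tip cells than in crypt cells, against 30.6% of 4217 genes, and the same 3 in the mid-villus, against 12.6%. The log2 changes at the tip were 1.77 ± 0.55 for Cd74 (adjusted p = 0.00626), 1.69 ± 0.62 for H2-Aa (adjusted p = 0.0194) and 1.95 ± 0.52 for H2-Ab1 (adjusted p = 0.00175). In the mid-villus they were 1.49 ± 0.55 (adjusted p = 0.0370), 1.84 ± 0.63 (adjusted p = 0.0224) and 1.97 ± 0.53 (adjusted p = 0.00347). With the mouse as a block 3 genes were called at the tip, against 31.7%, and 5 in the mid-villus, against 16.2%, with H2-Eb1 and H2-DMb1 in addition. Without mouse 4, H2-Aa was no longer called at the tip. In the mid-villus H2-Ab1 was the 1 gene called without mouse 1, against 16.2%, and without mouse 4, against 8.3%.

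The call at the tip depended on the scaling factor. The TMM factor of the 5 crypt cells of mouse 1 was 5.56, and those of the tips were 0.430 to 0.747. With library sizes alone, none of the 6 genes was called higher at the tip and H2-DMa was called lower (log2 change −1.37, adjusted p = 0.0159), against 9.79% of all genes higher and 47.6% lower. The median change was −0.13 over the 6 genes and −0.91 over all genes, and none was called in the mid-villus, against 7.54% higher. The block left the count at the tip the same, against 49.8% lower, and 3 genes (Cd74, H2-Aa and H2-Ab1) were called in the mid-villus, against 11.5%. When the crypt cells of mouse 1 were also left out, H2-Ab1 was called higher at the tip (1.07, adjusted p = 0.0430) and H2-DMa lower, against 9.06% and 48.2%, and Cd74, H2-Aa and H2-Ab1 were called in the mid-villus, against 6.91%. When the mouse was a block in addition, Cd74, H2-Aa and H2-Ab1 were higher at the tip, against 11.6%, H2-DMa was lower, against 50.7%, and 4 genes were higher in the mid-villus, against 11%. With TMM factors and without those cells, 3 genes were called at the tip, against 30%, and 4 in the mid-villus, against 13.3%. With the block the counts were 4 and 5, against 30.1% and 17.8%. Among all calls between tip and crypt, 52.2% were higher with TMM, 66.7% with DESeq2's size factors and 17.1% with library sizes alone, and for the mid-villus the shares were 42.0%, 63.5% and 26.1%.

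T lymphocyte markers moved with the zones of single cells. They summed to 406 to 4240 CPM in crypt sums, to 7.88 to 100 CPM in the mid-villus and to 4.63 to 126 CPM at the tip, and 12, 11 and 13 of 13 genes were detected in these zones. Myeloid markers were at 3.59 to 102, 0 to 4.09 and 1.39 to 3.01 CPM, with 6, 3 and 3 of 12 genes detected and C1qc at 0 in all zones. Without the cells that held a T lymphocyte marker UMI, 2 of 6 genes were called at the tip, against 30.9% of all genes, and 1 in the mid-villus, against 12.3%, so both counts are near the background. The median log2 change of the 6 genes was 1.37 at the tip and 1.36 in the mid-villus without these cells, beside 1.24 and 1.31 with them, and 3 and 4 genes had an unadjusted p below 0.05 in either case. Plasma cell markers summed to 145 to 1003 CPM in crypts, 0 to 1155 in the mid-villus and 2.78 to 1322 at the tip. B cell markers summed to 0 to 812, 0 to 4.73 and 0 to 1.75 CPM in the same order. A B cell, myeloid or plasma cell marker UMI was held by 205 of 380 crypt, 337 of 743 mid-villus and 351 of 1413 tip cells. Without these cells 4 genes could be tested. Cd74, H2-Aa, H2-Eb1 and H2-Ab1 were called in both zones, against 36.2% of all genes at the tip and 17.1% in the mid-villus.

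The change from crypt to tip was not shown to differ between clumps and single cells. In a test of that difference none of 6 genes was called by edgeR or DESeq2 and none had an unadjusted p below 0.05, against 0% of 7098 genes in the background and, with the mouse as a block, none against 0.0704%. For Cd74 the difference was 0.31 ± 0.87, with an interval of −1.39 to 2.01. It was 0.61 ± 1.06 for H2-Aa, 0.56 ± 0.80 for H2-Ab1, 0.71 ± 0.79 for H2-Eb1, 0.10 ± 0.87 for H2-DMb1 and 0.09 ± 0.64 for H2-DMa.

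Across cell types the genes were far from even. Cells were grouped by clustering that left these genes out, and clusters took names from marker lists. Enterocyte-like cells held 1510, 647, 1602 and 815 CPM of the 7 genes in mice 1 to 4, a mean of 1144 ± 483 CPM. Goblet-like cells, which make mucus, held 293, 71.3, 235 and 39.4 CPM and were below enterocyte-like cells in 4 of 4 mice. Enteroendocrine-like cells held 240 ± 91.5 CPM (4 mice) and tuft-like cells 238 ± 80.8 CPM (3 mice), and the ranges of these 3 secretory classes overlapped. In enterocyte-like cells Cd74 was at 682 ± 301 CPM, H2-Ab1 at 199 ± 72.9 CPM, H2-Aa at 142 ± 88.3 CPM, H2-Eb1 at 73.2 ± 28.0 CPM, H2-DMb1 at 27.9 ± 18.5 CPM and H2-DMa at 18.7 ± 7.56 CPM. In goblet-like cells the same genes were at 78.4 ± 68.3, 55.1 ± 41.6, 6.24 ± 12.5, 6.13 ± 9.23, 9.87 ± 11.4 and 2.49 ± 4.99 CPM.

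The highest levels were in a cluster of 205 cells that was given no name. Haemoglobin genes, Lyz2, Apoe and Csf2rb led it, and 7 myeloid markers (Csf1r, C1qa, C1qb, C1qc, Cd209a, Itgax and Lyz2) were among its 50 leading genes. It held 21442, 33921, 27605 and 35321 CPM of the 7 genes in mice 1 to 4, above every other class in each mouse, with Cd74 at 12828 ± 2636 CPM, H2-Aa at 6200 ± 1631 CPM and Ciita at 69.2 ± 24.7 CPM, beside 1.96 ± 1.96 CPM of Ciita in enterocyte-like cells. At a finer clustering, clusters of 76 and 131 cells took the myeloid name, with 29481 ± 6262 CPM over 4 mice. There, a cluster of 110 cells took the stem and dividing name and held 1046 ± 620 CPM over 4 mice (669 to 1970 CPM). Enterocyte-like cells held 1146 ± 487 CPM at this clustering.

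B or plasma-like cells held 7155, 1251 and 975 CPM in mice 2, 3 and 4. In mice 3 and 4 most of this was Cd74, at 1026 and 851 CPM. H2-Aa was at 50.6 and 0 CPM there, beside 260 and 69.7 CPM in enterocyte-like cells. H2-Ab1 was at 98.4 and 68.7 CPM, beside 273 and 146 CPM. T lymphocyte-like cells held 1306, 683 and 324 CPM in mice 2, 3 and 4, and 10521 CPM in mouse 1. The value of mouse 1 rested on 12 cells whose T lymphocyte markers came to 279 CPM, beside 27720 to 35342 CPM in the other mice, with B cell markers at 1257 CPM. Their name is therefore not borne out by the markers in mouse 1. Without mouse 1, T lymphocyte-like cells overlapped enterocyte-like cells in range.

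**Figure D4:**
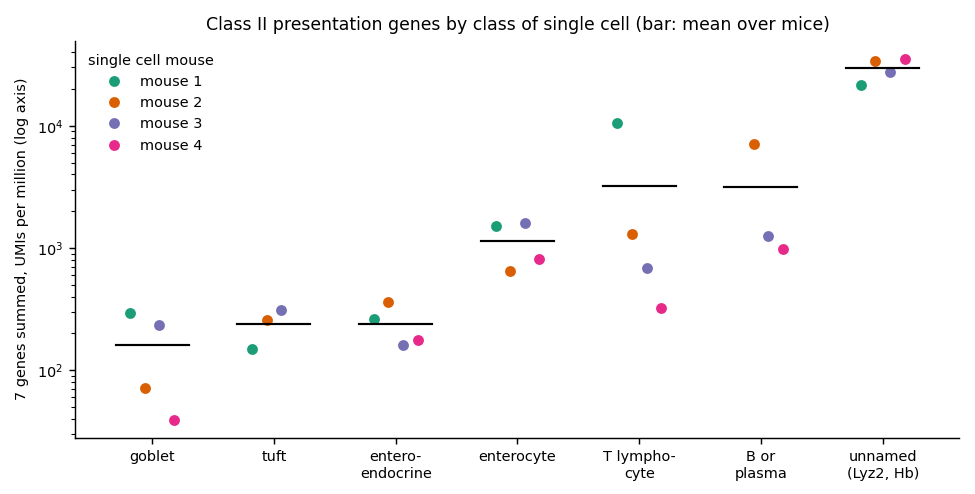
Summed level of the 7 class II genes (vertical axis, CPM on a log scale) in each class of single cell (horizontal axis), with 1 point per mouse and a bar for the mean over mice. The unnamed cluster led by haemoglobin genes and Lyz2 lies at 21442 to 35321 CPM, enterocyte-like cells at 647 to 1602 CPM and goblet-like cells at 39.4 to 293 CPM.

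As shares of cells, thinned to 500 UMIs, 49.0, 24.9, 49.9 and 27.0% of enterocyte-like cells of mice 1 to 4 held a class II UMI. In goblet-like cells 15.9, 5.06, 11.4 and 0% did, and the unnamed cluster had 84.0 to 100%. Free RNA in the wells was not measured, and its part in these shares was not tested. The median cell had 2254 to 3591 UMIs in the enterocyte-like class and 1532 to 2466 in the goblet-like class, and the unthinned shares were 51.9 to 89.3% and 6.67 to 40.3%. At most 15 enterocyte-like cells of a mouse were left out as too shallow.

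Sort gates differed in the classes they held. In mouse 1, 34 cells from the gate labelled EpcamLow_Cd24high held 14995 CPM of the 7 genes and 21 of them were in the unnamed cluster, 19 cells from Epcam_Cd24low held 14579 CPM, and 757 cells with no gate in the label held 1411 CPM. In mouse 2 the CD24 gate gave 4429 CPM, with 82 of 1080 cells in the unnamed cluster, the Epcam gate gave 570 CPM, and cells with no gate in the label gave 354 CPM. In mouse 3, cells sorted on Epcam alone held 2235 CPM, with 52 of 1260 cells in the unnamed cluster, and the CD45Epcam gate gave 1438 CPM, with 1 of 276. In mouse 4, the gate on Epcam alone gave 1881 CPM, with 40 of 802 cells in that cluster, and the CD54Epcam gate gave 904 CPM, with none of 258. The levels of tuft-like and enteroendocrine-like cells in mouse 2 came mostly from CD24 plates. Tuft-like cells held 361 CPM there (85 UMIs), 156 CPM in the Epcam gate (2 UMIs) and 0 of 93295 UMIs with no gate in the label. Enteroendocrine-like cells held 409 CPM (158 UMIs), 50.9 CPM (1 UMI) and 25.3 CPM (1 UMI) in the same order. Within enterocyte-like cells of mouse 3, the CD45Epcam gate gave 1534 CPM and the gate on Epcam alone 1649 CPM. In mouse 4 these cells held 919 CPM in the CD54Epcam gate and 786 CPM in the gate on Epcam alone. In mouse 2 these cells held 969 CPM in the CD24 gate (49 UMIs), 630 CPM in the Epcam gate and 708 CPM with no gate in the label.

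Genes around class II presentation were taken from lists, which were chosen by their roles. In clumps, 6 of the 7 genes of interferon gamma signalling reported here could be tested and all 6 were higher in tip clumps than in crypt clumps, beside the 24.5% of all genes. Jak2, a kinase of the receptor, had a log2 change of 2.25 ± 0.37 (adjusted p = 4.4e-05), Irf2 of 1.29 ± 0.32, the receptor chain Ifngr2 of 1.21 ± 0.32, the transcription factor Irf1 of 1.14 ± 0.25, Jak1 of 0.98 ± 0.34 and Ifngr1 of 0.77 ± 0.30. With DESeq2's size factors or with library sizes alone 4 of the 6 were called (Jak2, Irf1, Irf2 and Ifngr2), none lower, against the 18.5% and 15.6% given above. In the mid-villus 2 of 6 were called, Jak2 (1.34 ± 0.35) and Ifngr2 (1.26 ± 0.31), against 20.1% of all genes, and 4 with the mouse as a block, against 29.9%. In single cells 4 of 6 were higher at the tip with TMM (Jak2, Irf1, Irf2 and Ifngr2), against 30.6% of all genes. With DESeq2's size factors 6 were higher, against 45.6%, and with library sizes alone 1 (Jak2), against 9.79%, where Ifngr2 and Irf2 had negative values (−0.23 and −0.08).

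Genes of endosomal processing went both ways, with 3 of 9 higher and 2 lower at the tip in clumps, against 24.5% of all genes higher and 29.8% lower, so the counts are near the background. Ctsl (1.87 ± 0.55), Ctss (1.41 ± 0.32), the protease that trims the invariant chain in presenting cells, and Ctsz (0.87 ± 0.30) were higher. Ctsh (−1.91 ± 0.47) and Cst3 (−1.07 ± 0.34), which encodes an inhibitor of cathepsins, were lower. In the mid-villus Ctss (1.30 ± 0.31) and Ctsz (0.90 ± 0.29) were higher and Ctsh (−1.43 ± 0.34) was lower, against 20.1% higher and 22.3% lower in the background. With the mouse as a block, 5 were higher and 3 lower at the tip, against 29.6% and 33.4% of all genes, and 5 higher and 2 lower in the mid-villus, against 29.9% and 28.1%. With library sizes alone 2 were called higher and 3 lower at the tip, against 15.6% and 37.2%, with Ifi30 (−1.09 ± 0.36, adjusted p = 0.0138) among the lower. In single cells, where 7 of the 9 could be tested, Ctsz was higher at the tip (1.01 ± 0.37) and Cst3 (−2.43 ± 0.41), Ifi30 (−1.69 ± 0.36), a thiol reductase of the endosome, and Ctsh (−3.02 ± 0.57) were lower, against 30.6% of all genes higher and 28% lower, whereas with library sizes alone none was higher, against 9.79%, and 4 were lower, against 47.6%.

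Of the 8 listed factors that act on class II promoters, 5 could be tested in clumps and none was called in the villus. Of all genes, 24.5% were called higher and 29.8% lower at the tip, and 20.1% and 22.3% in the mid-villus. The nearest was Rfxank, at 1.00 ± 0.44 at the tip (adjusted p = 0.0598) and 0.77 ± 0.36 in the mid-villus (adjusted p = 0.0879). With the mouse as a block Crebbp was called higher at the tip (0.61 ± 0.26, adjusted p = 0.0414), against 29.6% of all genes. In the mid-villus Rfxank was called higher (0.79 ± 0.33, adjusted p = 0.0374), against 29.9%, and Creb1 lower (−0.81 ± 0.34, adjusted p = 0.0373), against 28.1%. None of these counts exceeds the background. In single cells Crebbp, the 1 factor tested, was higher at the tip with TMM (1.19 ± 0.39, adjusted p = 0.00828), against 30.6% of all genes. It was at −0.01 with library sizes alone. None of 4 further class II chains and editors and none of 6 costimulation genes passed the filter. H2-DMb2 averaged 1.87 to 3.09 CPM over zones and Cd274, an inhibitory ligand, averaged 0.239 CPM in the crypt, 0.289 CPM in the mid-villus and 5.07 CPM at the tip, where 5 mice gave a range of 0 to 13.0 CPM.

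**Figure D5:**
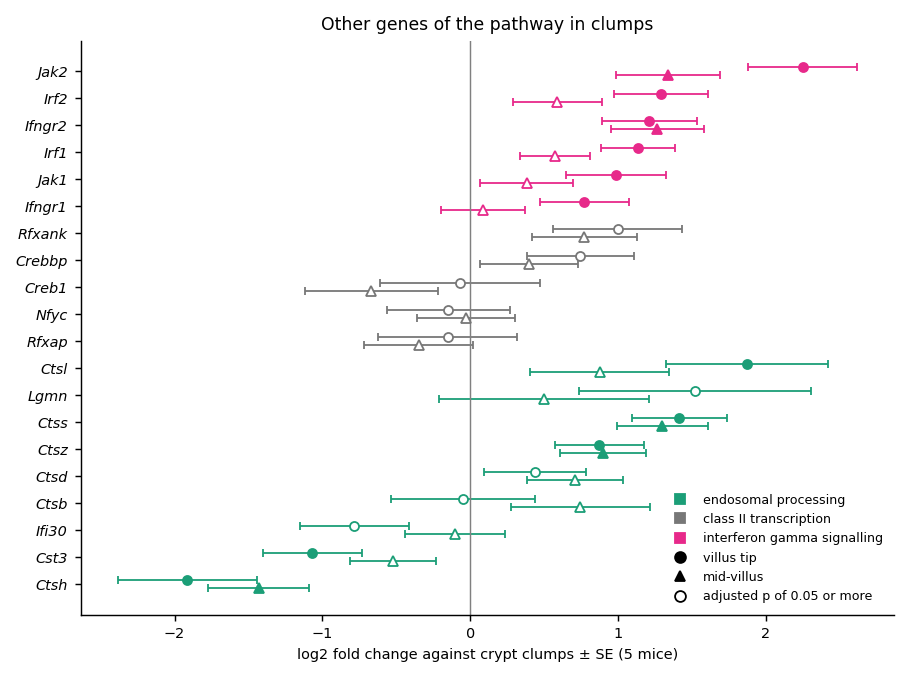
Log2 fold change ± SE against crypt clumps (horizontal axis) of the tested genes of 3 lists, at the villus tip (circles) and in the mid-villus (triangles), over 5 mice with TMM factors. Filled symbols passed the test at an adjusted p below 0.05. The 6 interferon gamma signalling genes all lie to the right of 0 at the tip, from 0.77 to 2.25, and Ctsh and Cst3 lie to the left.

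Over the 15 clump sums, the likeness of each gene to the summed class II genes was measured by Pearson's r on log2(CPM + 1). It was highest for Pklr (0.92), followed by 0.91 for Plb1, 0.91 for Slc5a8 and 0.90 for Slc44a4, and then, among the genes reported here, by Tmigd1, Vnn1, Sprr2b, Guca2a and Gm37428 down to 0.87, out of 6978 genes. The 15 sums share zones and mice, so this is a description. Each class II gene was also set against the sum of the other 6. The r was 0.98 for H2-Ab1, 0.97 for Cd74, 0.95 for H2-Aa, 0.91 for H2-Eb1 and 0.85 for H2-DMb1. It was 0.53 for H2-DMa and 0.30 for Ciita, the gene of fewest UMIs. Over 26 sums of single cell classes and mice the most alike were instead Apoe (0.87), Cybb (0.86), Napsa (0.85), Csf2rb (0.84) and Mpeg1 (0.84), of which Apoe and Csf2rb also led the unnamed cluster.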

How the data were processed

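Clumps and single cells of the jejunal epithelium were profiled by MARS-seq, which counts the 3′ ends of transcripts by UMI, so levels are not compared between genes. The deposited tables hold raw UMI counts per gene and well, made by the authors with STAR on GRCm38 (demultiplexing with bcl2fastq 2.15.0.4, per the submitters' processing notes). Wells were tied to plates and mice by their labels (45 clump plates with 17162 wells and 38454111 UMIs, 44 single cell plates with 16850 wells and 39137313 UMIs). No background from empty wells was subtracted, since the labels do not name the empty wells.

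Clumps entered the analysis if they held over 500 UMIs, 200 or more genes and a mitochondrial share of up to 30%, and the lowest 2% by landmark share were left out. Each was given the zone whose marker pattern its profile over 70 enterocyte landmark genes correlated with best, and these genes were left out of the tests. Single cells entered with 150 to 1500 genes, 200 to 7000 UMIs and a mitochondrial share of up to 40%, and those with 5 or more landmark UMIs were zoned. The cap on UMIs and genes was the treatment of doublets, and no doublet caller was run. Cells were clustered with scanpy 1.11.5 (2000 variable genes without the genes under study and their pathway lists, 25 components, 20 neighbours, Leiden resolution 0.1, or 0.5 as a finer clustering) and named by at least 3 markers among 50 leading genes, unless the 10 leading genes held more markers of another list. Class levels are descriptions with no test.

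UMIs were summed per mouse and zone or class (at least 5 cells) and tested with edgeR 4.0.16 in R 4.3.3 (quasi-likelihood, TMM, filterByExpr, Benjamini-Hochberg over all genes tested, threshold 0.05). The zones of 1 mouse came from the same animal. Deviations from zone means correlated with a median r of 0.369 (0.176 to 0.575, 15 pairs) within a mouse and −0.10 between mice, so the mouse is a true pairing. The main tests carry no mouse term. Alternatives were the mouse as a block, DESeq2 1.42.0, its size factors, no filter, pairs alone, other limits on clumps, removal of wells with immune markers and each mouse left out. Library sizes alone, the removal of 5 crypt cells and some joint settings were added after the data were seen. All genes of the 7 that could be tested are named in each comparison, and from the pathway lists those that passed a test and up to 4 abundant ones that did not. Some genes are not reported here, and counts over the pathway lists leave them out. The genes and lists were chosen with earlier results of these data known. Tests were tried on simulated counts. Mouse 6 was left out of the main tests because its gate was above 2n, and was added in an alternative.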

Additional observations from a re-analysis of the deposited data

Results flagged for a closer look

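A sample stood apart from the rest of its group, by Dixon's criterion, in 18 of 76 groups of 4 or 5 samples, where chance gives about 1 in 20. Many of these values share their libraries. In the 5 crypt cells of mouse 1, H2-Ab1 was at 812.4 CPM, H2-Eb1 at 812.4 CPM, H2-DMa at 101.6 CPM and Ciita at 101.6 CPM, and the last 2 values are 1 UMI each. In the mid-villus single cells of mouse 1 Ciita was at 14.12 CPM.

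In the 12 cells of mouse 1 in the T lymphocyte-like cluster, whose T lymphocyte markers were low, Cd74 was at 4935 CPM, H2-Aa at 1816 CPM, H2-Ab1 at 1350 CPM, H2-Eb1 at 1909 CPM, H2-DMa at 279.3 CPM and H2-DMb1 at 232.8 CPM. In enteroendocrine-like cells H2-Aa was at 0.0 CPM in mouse 3 and H2-Eb1 at 60.57 CPM in mouse 2, and H2-DMa and H2-DMb1 were at 53.27 CPM each in mouse 3. In goblet-like cells of mouse 3 H2-Aa was at 24.95 CPM, H2-DMa at 9.979 CPM and Ciita at 4.989 CPM.

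Mouse 6, whose clumps were sorted as above 2n and left out of the main comparisons, also held class II RNA. The 7 genes summed to 771.8 CPM in its 99 crypt clumps, to 2727 CPM in 69 mid-villus clumps and to 1696 CPM in 76 tip clumps.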

How the results depend on the processing

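Counts of called class II genes stayed within 1.5 times their main value in 107 of 121 comparisons with an alternative and moved further in 14, and class levels moved by less than 1 SD over mice in 12 of 12. In clumps, pairs alone gave 2 called genes at the tip and 2 in the mid-villus, and 4 and 5 with the replicate block. With mouse 6 added, 4 genes were called at the tip, 5 in the mid-villus and 0 between them. Leaving out 1 mouse gave 3 to 5 called genes at the tip and 2 to 5 in the mid-villus (2 without mouse 3), and 0 between tip and mid-villus, between larger clumps and pairs, and in the difference between clumps and single cells. The replicate block with library sizes alone gave 3 genes lower at the tip than in the mid-villus. In single cells at the tip, leaving out 1 mouse gave 2 to 3 genes, and library sizes alone gave 1 gene (H2-DMa, lower), without and with the mouse as a block (1 gene). In single cells of the mid-villus, the replicate block gave 5 genes, DESeq2's size factors 6, no filter on low counts 5, library sizes alone 0, removal of cells with T lymphocyte marker UMIs 1, removal of the 5 crypt cells of mouse 1 with the block 5, and leaving out 1 mouse 1 to 2 (1 without mouse 1 and 1 without mouse 4). The block with library sizes alone gave 3 genes in single cells of the mid-villus, and, without the 5 crypt cells of mouse 1, 3 genes higher at the tip. For these changes the cause was not tested. Shares of all genes called are given above for part of these settings, and counts without such a share are not compared. With DESeq2's size factors, a larger part of all calls in single cells was higher than with TMM, as given above. For single genes, 640 values stayed on their side of the threshold, 50 lost the call, 30 gained it and none changed sign while called. Depth limits Ciita throughout and the tips of mice 4 and 5, where the 7 genes had 140 and 102 UMIs.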
